A study of Rattus norvegicus with 10 samples.

Results

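The integrin subunits described here are the products of Itga1, Itga5, Itga6, Itga7, Itga8, Itgav, Itgb1, Itgb3 and Itgb5. Their members are all probe sets annotated with exactly 1 symbol that is among these 9 genes, which gave 20 of the 31099 probe sets on the array. Of these, 19 were above the lowest deposited intensity on at least 1 array and entered the tests; the remaining one, 1371214_at for Itga7, stood at the floor of 20 on all 10 arrays. By genes, these are 9 of the 13286 named among the tested probe sets. The arrays measured total RNA of HSC-2, a hepatic stellate cell line of the Wistar rat grown in high-glucose DMEM with 10% FBS and antibiotics. There were 5 lines: the untransfected HSC-2 line, a line transfected with a scrambled sequence (the scrambled line), and the clones S1, S4 and S5 transfected with rno-miR-146a. Each line was arrayed at passages 42 and 43. S1, S4 and S5 are each 1 clone, so an effect of the microRNA and a trait of the clone cannot be told apart within one of them. The labels do not say whether the passages were separate cultures, so a p-value here covers the spread between such samples alone, and that spread may be technical.

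Integrins are transmembrane receptors, each a pair of an alpha and a beta subunit, that tie the extracellular matrix to the actin cytoskeleton and carry signals both ways across the membrane. Itgb1 pairs with many alpha subunits, among them the collagen receptor chain Itga1, the laminin receptor chains Itga6 and Itga7, and the chains Itga5 and Itga8, which recognise the RGD motif of fibronectin and nephronectin. Itgav pairs with Itgb1, Itgb3, Itgb5 and other beta chains, binds vitronectin and further RGD proteins, and can release active TGF-beta from its latent complex. Hepatic stellate cells take on a matrix-producing, contractile state in liver injury, and their integrins are studied as sensors of that matrix.

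The transfected microRNA is shown to make its seed visible. The RefSeq entry for the 5p arm lies at chr10:28350053-28350074 of GRCr8 on the minus strand, with bases 2 to 8, the seed, in capitals.
rno-miR-146a-5p: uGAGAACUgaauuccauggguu
Whether any integrin transcript carries a site for it was not analysed here, and the arrays did not measure the mature microRNA.

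The promoters of Itga1 and Itga8 are shown because these subunits differed between lines in unlike patterns: Itga1 was high on the untransfected arrays, and Itga8 was low on the scrambled arrays. RefSeq gave a promoter for 6 of the 9 genes (Itga1, Itga5, Itga8, Itgav, Itgb1 and Itgb5). Each stretch is the 250 bases before the annotated start on GRCr8, from chr2:48545284-48545533 on the minus strand for Itga1 and chr17:80410634-80410883 on the minus strand for Itga8, and capitals would mark a motif match.
Itga1: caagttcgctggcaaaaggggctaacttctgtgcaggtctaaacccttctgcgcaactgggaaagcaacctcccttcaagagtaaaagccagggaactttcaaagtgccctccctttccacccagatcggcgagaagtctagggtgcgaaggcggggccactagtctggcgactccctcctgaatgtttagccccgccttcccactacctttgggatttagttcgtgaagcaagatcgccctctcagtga
Itga8: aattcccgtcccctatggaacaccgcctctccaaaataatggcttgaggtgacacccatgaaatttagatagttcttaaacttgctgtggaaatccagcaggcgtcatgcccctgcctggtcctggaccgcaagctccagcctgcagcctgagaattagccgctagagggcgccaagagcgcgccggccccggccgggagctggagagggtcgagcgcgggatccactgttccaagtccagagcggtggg
Both strands were searched for the GC box, spelled GGGCGG. The search for an AP-1 site used the letters TGANTCA with any base at N. The TATA box was searched as TATAAA, and the CArG box by its usual consensus. The stretches of Itga1 and Itga8 held none of these motifs, which says only that the letters are not in this window. Among the other integrin promoters, Itgb1 held 4 GC boxes, Itgav 2 and Itga5 1. A GC box was found in 30.5% of the 33469 promoter windows of the same length, an AP-1 site in 6.34%, a TATA box in 12.9% and a CArG box in 1.5%.

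The labelled cell type was checked against markers. Of 12 stellate cell genes measured, Vim, Col1a1 and Col1a2 were at or above 17936 intensity units on every array, Acta2 ranged from 1124 to 9626 and Tagln from 3588 to 18208. Lrat, the retinol-esterifying enzyme of quiescent stellate cells, was at the floor on all 10 arrays, and Ngfr and Gfap stayed under 40. Reln ranged from 30.0 to 41.5, Des from 86.4 to 187, Hand2 from 213 to 352 and Pdgfrb from 720 to 1666. Of the markers of other liver cells, Cd163, Adgre1 and Epcam were at 20 on every array, Ptprc never exceeded 21.04, Alb lay between 30.65 and 38.41, and Pecam1 between 25.09 and 29.57. Others on those lists were brighter: the hepatocyte gene Ttr ranged from 150 to 207, the endothelial gene Tek from 99.8 to 198, and the macrophage genes Lyz2 from 80.45 to 101.02 and Cd68 from 44.3 to 74.3. Summed over 5 mesothelial and smooth muscle genes, clone arrays ranged from 1943 to 2281 and control arrays from 1732 to 1840, apart from each other; within that sum Wt1 gave 834 to 1235 against 415 to 858. Summed over 6 macrophage and leukocyte genes, the clone arrays (243 to 251.87) lay just below the control arrays (252.66 to 290). That sum is of dim signal and includes Cd163 and Adgre1, which stood at the floor throughout. The part of these markers in the integrin results was not tested, and in bulk RNA fewer cells of a type and less RNA per cell cannot be told apart.

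Between single lines, calls fell on 6 of the 9 integrin genes, most of them between the scrambled line and another line. Of the 19 integrin probe sets tested, 7 were called in S1 against scrambled, 5 in S4 and 4 in S5, where 4.19%, 3.64% and 3.44% of all tested probe sets were called. Against the untransfected line, 2 were called in S1, 4 in S4 and 2 in S5, where 4.38%, 3.52% and 3.63% of all tested probe sets were called. With the passage as a block, these last 3 counts were 5, 5 and 4, where 2439, 1904 and 2103 of all 27520 tested probe sets were called. The scrambled line differed from the untransfected line at 9 of the 19, against 6.10% of all tested probe sets. With the passage as a block it differed at 12, against 3602 of all 27520. Of the 9 called without the block, 8 were lower and 1 higher in the scrambled line. The median over the 19 was -0.57 on the log2 scale, with 0 over all tested probe sets. Without the filter on probe sets at the floor, 17 of the 33 integrin calls were lost. Comparisons with one control share its 2 arrays, so their calls are not separate evidence. The heat map of differences shows that the calls sit in a few genes: Itgb3, Itga1, Itga6, Itga7, Itga8 and, between the control lines, Itga5.

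**Figure D1:**
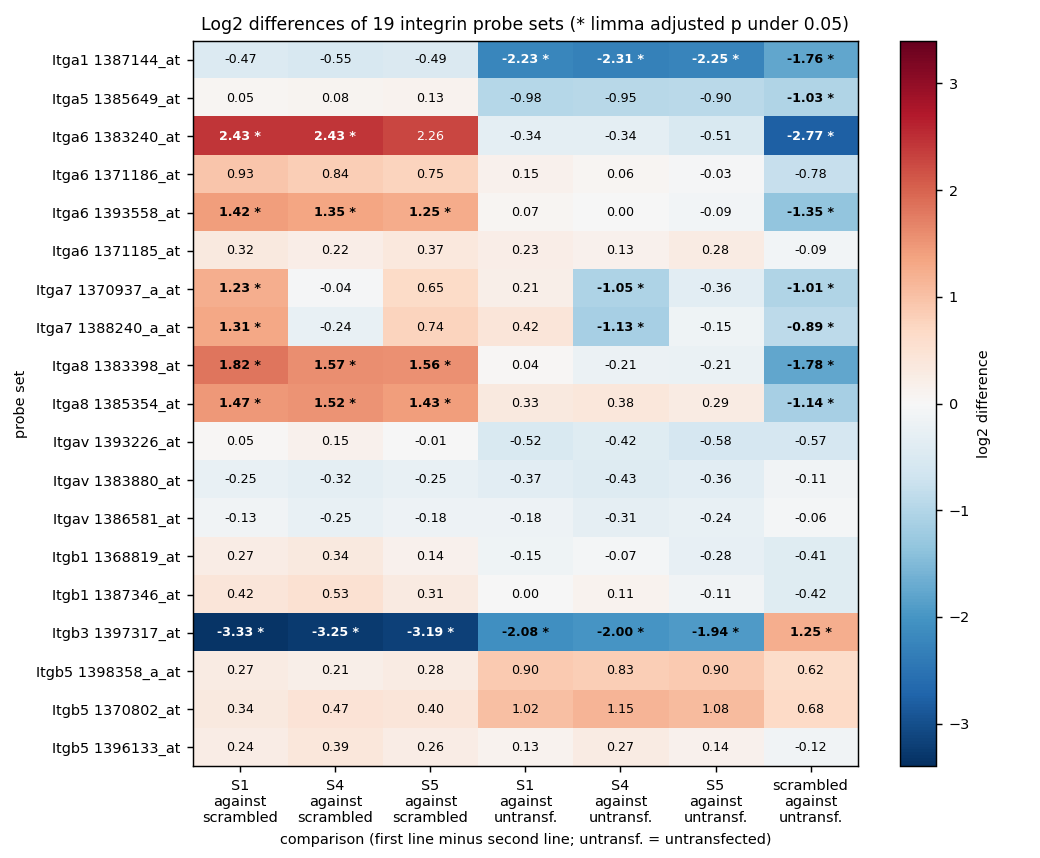
Log2 difference of each of the 19 tested integrin probe sets (vertical axis) in the 7 single-line comparisons (horizontal axis), first line minus second, each line the mean of 2 arrays; a star and bold type mark a limma adjusted p under 0.05. Itgb3 is the darkest line, from -3.33 in S1 against scrambled to 1.25 between the control lines, while Itgb1 and Itgav carry no star.

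Itgb3, the beta chain that pairs with Itgav in non-platelet cells, was the lowest in the clones and the highest in the scrambled line. Its single probe set, 1397317_at, gave 187 and 272 intensity units on the untransfected arrays at passages 42 and 43 and 494 and 582 on the scrambled arrays. The clone arrays gave 39.9 and 71.2 in S1, with 53.0 and 60.1 for S4 and 50.9 and 68.3 for S5. All 6 clone arrays lay below all 4 control arrays, and both scrambled arrays lay above both untransfected ones. Against the scrambled line, Itgb3 was lower in S1 by 10.1-fold, a log2 difference of -3.33 (SE 0.29, limma adjusted p = 0.00109). The log2 difference was -3.25 for S4 and -3.19 for S5 (limma adjusted p = 0.00119 and 0.00147). It was also lower than in the untransfected line, with log2 differences of -2.08, -2.00 and -1.94 in the order S1, S4, S5 (limma adjusted p = 0.00917, 0.0118 and 0.0145). The calls against the scrambled line held in each of the 10 fits that left out 1 array. Those against the untransfected line were lost without the untransfected array at passage 43, where the limma adjusted p was 0.0884, 0.103 and 0.112, and those of S4 and S5 also without either array of the clone itself (up to 0.101 and 0.127).

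The control lines themselves differed at Itgb3. The scrambled line was higher than the untransfected line by 1.25 on the log2 scale (SE 0.29, limma adjusted p = 0.0495), a value at the edge of the threshold. That call was kept with the passage as a block and lost with quantile normalisation and without the filter on probe sets at the floor. Of the 10 fits that left out 1 array, 8 lost it, and only those without either S1 array kept it. With each line as 1 replicate, the clone means differed from the control means by -2.63 on the log2 scale (SE 0.37, 95% interval -3.57 to -1.69), and the limma adjusted p was 0.0640. Over the whole array, 0.898% of tested probe sets were called in that comparison, and of the 19 integrin probe sets 0 were called by limma, with 9 at an unadjusted p under 0.05. Itgb3 had the lowest adjusted p of the 19 there.

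The size of these differences depended on the control line kept. Set against the untransfected line alone, the clone means differed by -2.01 on the log2 scale at Itgb3, -2.26 at Itga1 and -0.94 at Itga5, and by 0.87 and 1.09 at the leading pair of Itgb5 probe sets. Set against the scrambled line alone, they differed by -3.25 at Itgb3, -0.50 at Itga1, 2.37 at the leading Itga6 probe set, and 1.65 and 1.47 at those of Itga8. Such a fit has a control arm of 1 line, so its spread comes from the 3 clones alone and the control line is only assumed to vary like them. Its counts of integrin calls, 6 and 7, are therefore given with no weight. With both control lines and 1 clone left out, the limma adjusted p of Itgb3 was 0.223 to 0.362.

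Counted by array, 4 integrin probe sets had all 6 clone arrays on 1 side of all 4 control arrays, where 7.50% of all tested probe sets did. These were Itgb3 and Itga1, below, and Itga8 (1385354_at) and Itga6 (1371185_at), above. The Itga6 probe set was dim, with 35.6 to 41.1 intensity units on the clone arrays and 30.6 to 35.0 on the control arrays, and passed no test between lines.

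**Figure D2:**
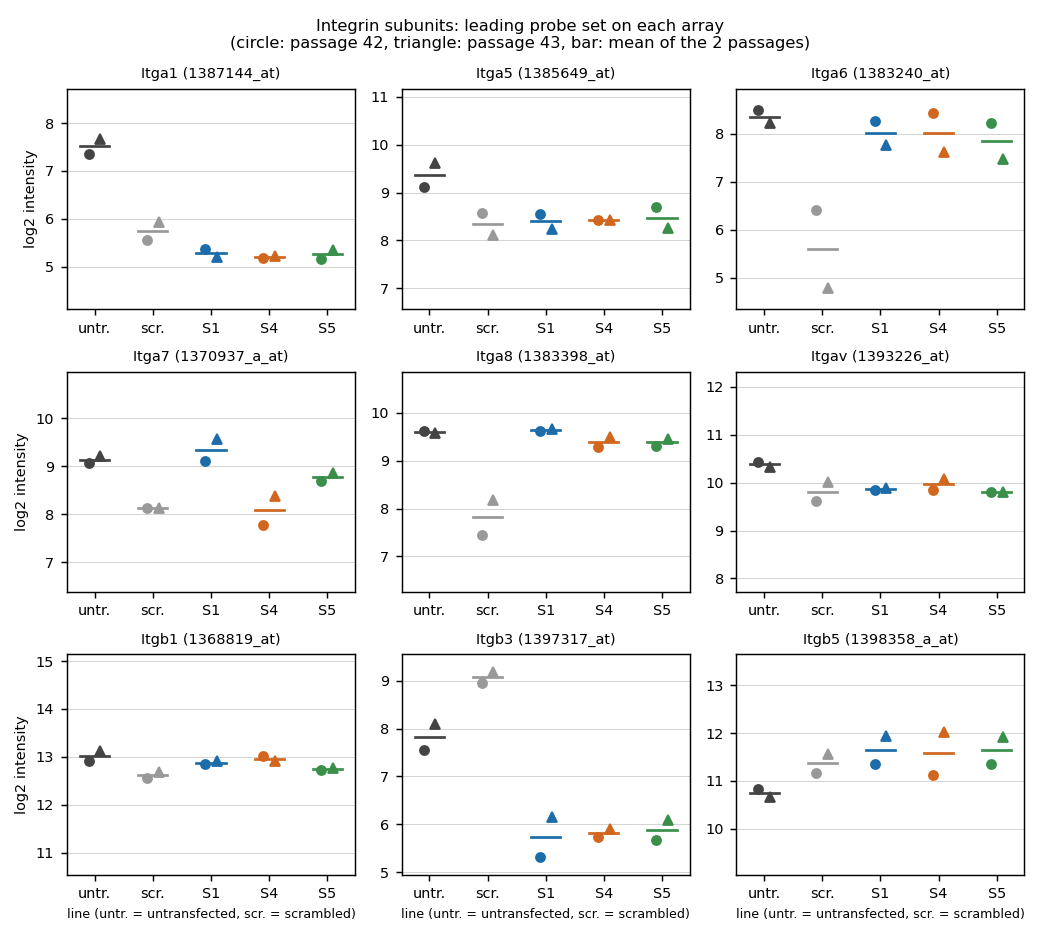
Log2 intensity (vertical axis) of the leading probe set of each of the 9 integrin genes in the 5 lines (horizontal axis), with circles for passage 42, triangles for passage 43 and a bar for the mean of the 2 arrays; every panel spans the same log2 height, set around its own middle. Itgb3 is low in all clones, Itga1 is high in the untransfected line, and Itga6 and Itga8 are low in the scrambled line.

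Itgb5, another beta partner of Itgav and part of a vitronectin receptor, was measured by 3 probe sets. The leading one, 1398358_a_at, gave 1822 and 1623 intensity units on the untransfected arrays, 2294 and 3049 on the scrambled arrays, 2608 and 3921 in S1, with 2241 and 4177 for S4 and 2633 and 3898 for S5. Every transfected array was above both untransfected arrays, but the transfected lines overlapped. The clones were higher than the untransfected line by 0.90 in S1 (SE 0.34), 0.83 in S4 and 0.90 in S5 on the log2 scale, none of them called (limma adjusted p = 0.196, 0.253 and 0.198). With the passage as a block the S1 value was called (limma adjusted p = 0.0497).

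The second Itgb5 probe set, 1370802_at, gave 334 and 385 on the untransfected arrays, 470.5 and 702 on the scrambled arrays, 559 and 952 in S1, with 577 and 1102 for S4 and 589 and 979 for S5. It followed the leading probe set closely, with Pearson's r = 0.97 over the 10 arrays. Its differences from the untransfected line were 1.02, 1.15 and 1.08 in S1, S4 and S5 (SE 0.40) and missed the threshold (limma adjusted p = 0.210, 0.186 and 0.191). With the passage as a block they were called (limma adjusted p = 0.0127, 0.00930 and 0.0119), as was the difference of 0.68 between the scrambled and the untransfected line (0.363 without the block, 0.0390 with it). The third Itgb5 probe set, 1396133_at, ranged from 54.0 to 97.7 and was not called.

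Itgb1, the shared beta chain of the collagen, laminin and fibronectin receptors, changed little between lines, with line means that ranged over 0.41 on the log2 scale at the leading probe set. This probe set, 1368819_at, gave 7749 and 8969 intensity units on the untransfected arrays, 6002 and 6546 on the scrambled arrays, and 6793 to 8246 on the 6 clone arrays. Both scrambled arrays lay below all other arrays. The difference between scrambled and untransfected was -0.41 on the log2 scale (SE 0.11, 95% interval -0.66 to -0.16), which missed the threshold (limma adjusted p = 0.0679) and passed it with the passage as a block (0.0423). None of the clone differences was called for this probe set, and against the untransfected line they lay between -0.28 and -0.07. The other probe set, 1387346_at, ranged from 3318 to 5205 (r = 0.85 with the leading one) and was not called in any of the 7 comparisons.

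Itga1, the alpha chain of a receptor for collagens including the basement membrane collagens, was high in the untransfected line and low in every transfected one. Its probe set 1387144_at gave 165 and 203 intensity units on the untransfected arrays and 47.3 and 61.5 on the scrambled arrays. The clones gave 41.3 and 36.8 in S1, with 36.5 and 37.2 for S4 and 36.0 and 40.9 for S5. The 6 clone arrays thus lay below both scrambled arrays, and the scrambled arrays below both untransfected arrays. The clone values were near those of the hepatocyte marker Alb (30.65 to 38.41), so low signal limits the size of the clone differences. Against the untransfected line, Itga1 was lower in every clone, with log2 differences of -2.23 for S1, -2.31 for S4 and -2.25 for S5 (SE 0.16, limma adjusted p = 0.000625, 0.000449 and 0.000631). The scrambled line fell by 1.76 (limma adjusted p = 0.00148). Against the scrambled line the clone differences were -0.47, -0.55 and -0.49 and were not called (limma adjusted p = 0.190, 0.129 and 0.178), with a 95% interval for S1 of -0.84 to -0.10. All 4 calls held in each of the 10 fits that left out 1 array.

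Itga6, the alpha chain of laminin receptors found on many epithelial and mesenchymal cells, was low in the scrambled line. The leading probe set, 1383240_at, gave 362 and 299 intensity units on the untransfected arrays and 84.5 and 27.5 on the scrambled arrays. It gave 311 and 217 in S1, with 346 and 196 for S4 and 299.5 and 179 for S5. The scrambled arrays were apart from the other 8 arrays and were also far apart from each other, by 1.62 on the log2 scale. The lower of them, 27.5, was near the floor of 20. The scrambled line fell by 2.77 below the untransfected line (SE 0.52, limma adjusted p = 0.0241). S1 and S4 were each higher than the scrambled line by 2.43 (limma adjusted p = 0.0443 and 0.0485). With the passage as a block the limma adjusted p was 0.00294 and 0.00289. S5 was higher by 2.26 (limma adjusted p = 0.0647, and 0.00442 with the block). Clones and untransfected line were closer, with differences of -0.34, -0.34 and -0.51, none called.

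These Itga6 calls were lost in some of the fits that left out 1 array. Some arrays left out belonged to neither line compared. At the leading probe set, the S1 and S4 differences from the scrambled line then stayed at 2.43. For the leading probe set the S1 and S4 calls were lost in 9 of 10 fits that left out 1 array and held only without the scrambled array at passage 42; the limma adjusted p rose to 0.228 without S1 at passage 42 and 0.285 without S4 at passage 42. The scrambled against untransfected call was lost in 7 of 10 fits, at most 0.117 without the untransfected array at passage 43. The dimmer probe set 1393558_at was also lowest in the scrambled line: 92.6 and 86.6 on the untransfected arrays, 37.0 and 33.4 on the scrambled arrays and 67.3 to 105 on the clone arrays. It was higher than scrambled by 1.42 in S1, 1.35 in S4 and 1.25 in S5 (SE 0.21, limma adjusted p = 0.0103, 0.0128 and 0.0195), and the scrambled line fell by 1.35 below the untransfected line (0.0111). These 4 calls were lost in 3 or 4 of the 10 fits each, always without the scrambled array at passage 43 (limma adjusted p = 0.0888, 0.0937, 0.136 and 0.0674). Another probe set, 1371186_at, had its lowest array in the scrambled line at passage 43 (55.4) and differences of 0.93, 0.84 and 0.75 from it in the clones, not called.

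Itga7, the laminin receptor chain best known from muscle, was the subunit with the lowest p in the F test between the clones. The leading probe set, 1370937_a_at, gave 536 and 590.1 intensity units on the untransfected arrays and 278 and 279 on the scrambled arrays. It gave 557 and 762 in S1, 220.1 and 335 in S4, while S5 gave 415 and 463. S1 overlapped the untransfected line, S4 straddled the scrambled line, and S5 lay between the control lines. The second probe set, 1388240_a_at, moved with it (r = 0.97 over the 10 arrays): 206 and 232 on the untransfected arrays, 136 and 103 on the scrambled arrays, 253 and 336 in S1, with 87.0 and 115 for S4 and 188 and 207 for S5.

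S1 was higher than the scrambled line at both Itga7 probe sets, by 1.23 and 1.31 on the log2 scale (limma adjusted p = 0.0204 and 0.0128). S4 was lower than the untransfected line at both, with log2 differences of -1.05 and -1.13 (limma adjusted p = 0.0418 and 0.0253), and the scrambled line fell by 1.01 and 0.89 (0.0356 and 0.0441). No S5 difference was called. The F test between the 3 clones gave an unadjusted p of 0.00134 and 0.000213 and a limma adjusted p of 0.536 and 0.217 (0.111 for both with the passage as a block), so the difference between clones was not called. Across the array that test called 0.0327% of probe sets, and of the 19 integrin probe sets it called 0, with these 2 at an unadjusted p under 0.05. Leaving out S1 at passage 43 ended both S1 calls (limma adjusted p = 0.177 and 0.123), as did leaving out the scrambled array at passage 43 (0.122 and 0.0957). The S4 calls were lost in 9 and 6 of 10 fits, up to 0.198 and 0.159, and those between the control lines in 6 and all 10, up to 0.168 and 0.195.

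Itga8, the chain of a nephronectin and fibronectin receptor that is expressed by stellate cells and other mesenchymal cells, was low in the scrambled line and high in the clones and the untransfected line. The leading probe set, 1383398_at, gave 786 and 765 intensity units on the untransfected arrays and 176 and 292 on the scrambled arrays. It gave 783 and 812 in S1, with 629 and 719 for S4 and 637 and 702 for S5. The scrambled arrays lay far below the other 8. The clones were higher than the scrambled line by 1.82 in S1, 1.57 in S4 and 1.56 in S5 on the log2 scale (SE 0.21, limma adjusted p = 0.00377, 0.00699 and 0.00850). The scrambled line fell by 1.78 below the untransfected line (0.00410), and the clones differed from the untransfected line by 0.04, -0.21 and -0.21, not called.

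The second Itga8 probe set, 1385354_at, gave 171 and 203 on the untransfected arrays, 75.6 and 94.9 on the scrambled arrays and 225 to 252 on the 6 clone arrays. The 3 groups of arrays did not overlap. The clones were higher than the scrambled line by 1.47, 1.52 and 1.43 (SE 0.14, limma adjusted p = 0.00130, 0.00116 and 0.00167), and higher than the untransfected line by 0.33, 0.38 and 0.29, differences that were not called. The calls of this probe set held in each of the 10 fits that left out 1 array. Those of the leading one against the scrambled line were lost without S1 at passage 43 (limma adjusted p = 0.0522) and without either array of S4 (0.0553 and 0.0789) or S5 (0.0710 and 0.0981).

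Itga5, the alpha chain of the main fibronectin receptor, was high in the untransfected line. Probe set 1385649_at gave 557 and 789 intensity units there, 382 and 276 on the scrambled arrays, 378 and 301 in S1, 344 on both S4 arrays, and 412 and 305 in S5. All 8 transfected arrays lay below both untransfected arrays, and the transfected lines overlapped. The scrambled line fell by 1.03 on the log2 scale (SE 0.24, limma adjusted p = 0.0453), and the clones differed from the untransfected line by -0.98, -0.95 and -0.90 without being called (0.0635, 0.0804 and 0.0859, the first 0.0424 with the passage as a block). The call between the control lines was lost in 9 of 10 fits that left out 1 array, up to 0.211 without the untransfected array at passage 43, and held only without the other untransfected array. Against the scrambled line the clones differed by 0.05 to 0.13, with 95% intervals from -0.49 to 0.67 over the 3 clones.

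Itgav, the alpha chain shared by the vitronectin receptors, was measured by 3 probe sets that did not all follow each other. The leading one, 1393226_at, gave 1379 and 1289 intensity units on the untransfected arrays, 782 and 1036 on the scrambled arrays and 888 to 1084 on the clone arrays, so that both untransfected arrays were the highest. Its differences from the untransfected line were -0.57 in the scrambled line (limma adjusted p = 0.0656, and 0.0347 with the passage as a block), -0.52 in S1, -0.42 in S4 and -0.58 in S5 (0.0798, and 0.0441 with the block). The second, 1383880_at, ranged from 675 to 1235 and the third, 1386581_at, from 379 to 656. At these 2 the ranges of most pairs of lines overlapped, but S4 lay below the untransfected line at both, below the scrambled line at 1383880_at, and S1 below the untransfected line at 1386581_at. Over the 10 arrays these 2 had r = 0.84 with each other but 0.18 and -0.04 with the leading one. None of the 3 probe sets was called between single lines without the passage as a block.

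Between passages, several integrin probe sets shifted in the same direction in most lines. In the comparison of passage 43 with 42, 3 of the 19 integrin probe sets were called, where 5.52% of all tested probe sets were. Itgb5 (1370802_at) was higher at passage 43 by 0.64 on the log2 scale (limma adjusted p = 0.0208), with changes of 0.21 in the untransfected line, 0.58 in the scrambled line, 0.77 in S1, 0.93 in S4 and 0.73 in S5. Itga6 (1383240_at) fell by 0.80 (0.0468), most in the scrambled line, and Itgav (1383880_at) fell by 0.41 (0.0347). Itgb3 was higher at passage 43 in all 5 lines, by 0.44 on average, and missed the threshold (0.0516). The 3 calls were lost in the fits that left out the scrambled line, S1, S4 or S5, where the limma adjusted p of Itgb5 (1370802_at) was 0.0622, 0.114, 0.0880 and 0.119. Each line contributed 1 array per passage, so passage and time of culture or handling cannot be told apart.

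**Figure D3:**
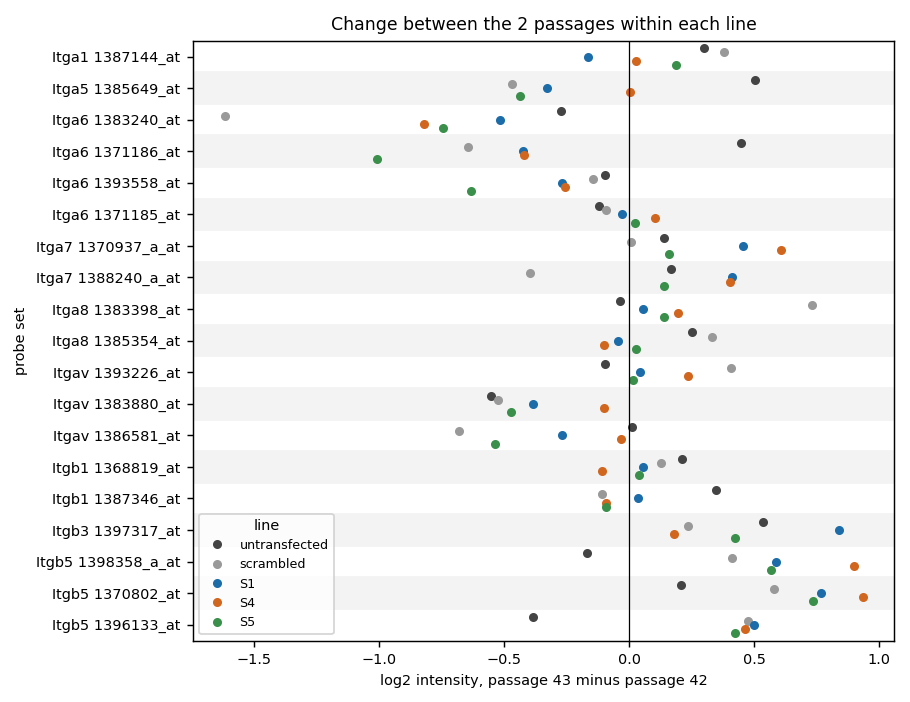
Change in log2 intensity from passage 42 to passage 43 (horizontal axis) of each of the 19 tested integrin probe sets (vertical axis), with 1 point per line. At Itgb5 1370802_at all 5 lines lie to the right of 0, from 0.21 to 0.93; at Itga6 1383240_at all lie to the left, the scrambled line farthest at -1.62.

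Of 18 other genes listed with the family, 14 were measured. The list holds Itgbl1, integrin beta-like 1, which is not itself a subunit. Against the scrambled line, 3 were called higher and 1 lower in each clone, from Itga3, Itga11, Itgb6 and Itgb7. Over all tested probe sets, 4.19%, 3.64% and 3.44% were called in S1, S4 and S5. The median over the 14 was -0.12 in S1, with -0.01 over all tested probe sets. Against the untransfected line 1 was called higher and 1 lower in S1 and S5, and 1 higher and 2 lower in S4. There, 4.38%, 3.52% and 3.63% of all tested probe sets were called in S1, S4 and S5. Between the scrambled and the untransfected line 5 of the 14 were called, 2 higher and 3 lower in the scrambled line, against 6.10% of all tested probe sets. Itga11, a receptor chain for fibrillar collagen, gave 4485 and 5928 intensity units on the untransfected arrays, 1036 and 672 on the scrambled arrays and 2646 to 3893 on the clone arrays. It was higher than scrambled by 1.93, 1.94 and 1.79 in S1, S4 and S5 (limma adjusted p = 0.00616, 0.00568 and 0.00962) and lower in the scrambled than in the untransfected line, with a log2 difference of -2.63 (0.00175).

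Itgb6, a beta partner of Itgav best known from epithelia, was at the floor of 20 on both untransfected arrays. It gave 31.2 and 26.9 on the scrambled arrays, 88.1 and 93.6 in S1, with 50.1 and 58.5 for S4 and 75.0 and 78.1 for S5. The clones were at least 4.54-fold, 2.71-fold and 3.83-fold higher than the untransfected line, taken against the floor (limma adjusted p = 0.000177, 0.000873 and 0.000324). Itgax, a leukocyte integrin chain, gave 130.3 and 172 on the untransfected arrays, 42.5 and 79.6 on the scrambled arrays and 29.6 to 41.1 on the clone arrays, while Ptprc, the pan-leukocyte marker, never exceeded 21.04. Itgax differed from the untransfected line by -2.30, -1.94 and -2.21 in S1, S4 and S5 (limma adjusted p = 0.00439, 0.00973 and 0.00591). In the scrambled line the difference was -1.36 (limma adjusted p = 0.0300). Against the scrambled line no clone was called (limma adjusted p = 0.125, 0.377 and 0.177). Itga9, which binds tenascin and osteopontin, fell by 0.92 in S4 (0.0446) and by 0.98 in the scrambled line (0.0276) against the untransfected line.

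Among 37 genes for integrin adaptors and focal adhesion proteins, 35 were measured, with more called lower than higher in the scrambled line. Against it, 9 of the 35 were called higher in S1, 9 in S4 and 7 in S5, and 0 were called lower. Over all tested probe sets, 4.19%, 3.64% and 3.44% were called in these comparisons. The medians over the 35 were 0.35, 0.30 and 0.22. In the scrambled line 12 were called lower and 0 higher than in the untransfected line, with a median of -0.25. There, 6.10% of all tested probe sets were called. Against the untransfected line, where 4.38%, 3.52% and 3.63% of all tested probe sets were called, 1 gene was called higher and 1 lower in S1 and S4. In S5, 1 was called lower. The direction of these clone calls depended on the probe set. With the one of largest variance for each gene, 1 was called higher in S1, 2 in S4 and 1 in S5. None was then called lower. Vcl was called higher in each clone, and Cav1 and Cd47 were no longer called. Cd81, a tetraspanin that associates with integrins, gave 2865 and 4066 on the untransfected arrays, 193 and 269 on the scrambled arrays and 2796 to 4253 on the clone arrays, a difference of -3.91 between the control lines (limma adjusted p = 0.000613). Lims2, an adaptor of the kinase Ilk, gave 271 and 275, 43.0 and 36.2, and 315 to 471 in the same order (-2.79, limma adjusted p = 0.000613). Csrp1, an actin-associated LIM protein, and Vcl, vinculin, were lower in the scrambled than in the untransfected line, with differences of -1.76 and -0.85 (0.00496 and 0.00846). The Vcl call between the control lines was absent with the probe set of largest variance, where 10 genes of this list were called lower in the scrambled line.

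Of 43 symbols listed for integrin ligands, 37 were measured. The list holds Cyr61, Ctgf and Nov, older names of Ccn1, Ccn2 and Ccn3, beside the current ones. Against the scrambled line, S1 had 11 called higher and 4 called lower, S4 had 11 and 3, and S5 had 8 and 3. Over all tested probe sets, 4.19%, 3.64% and 3.44% were called in these comparisons. The medians over the 37 were 0.45, 0.51 and 0.54. In the scrambled line 2 were called higher and 10 lower than in the untransfected line, with a median of -0.65. There, 6.10% of all tested probe sets were called. Against the untransfected line the clones had 5, 2 and 4 called lower and 0 called higher, where 4.38%, 3.52% and 3.63% of all tested probe sets were called. Col4a1, a basement membrane collagen chain bound by the Itga1 receptor, gave 6254 and 7844 on the untransfected arrays, 755 and 530.1 on the scrambled arrays and 5753 to 8515 on the clone arrays (-3.47 between the control lines, limma adjusted p = 0.000395). Postn, the Itgav ligand periostin, gave 6410 and 9760 on the untransfected arrays, 38.0 and 29.5 on the scrambled arrays, 669 and 369 in S1, with 3883 and 1857 for S4 and 805 and 395 for S5. The log2 difference between the control lines was -7.88 (limma adjusted p = 0.000287).

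Vcam1, a ligand of leukocyte integrins, ran the other way, like Itgb3 high in the scrambled line: 203 and 302 on the untransfected arrays, 3146 and 4117 on the scrambled arrays and 218 to 804 on the clone arrays. Its differences from the scrambled line were -3.52 in S1, -3.05 in S4 and -3.17 in S5 (limma adjusted p = 0.0297, 0.0532 and 0.0486). Col6a2, a collagen VI chain, was lower in the clones than in both control lines: 3720.0 and 5906 on the untransfected arrays, 2287 and 2978 on the scrambled arrays and 553 to 1102 on the clone arrays. The differences from the scrambled line were -1.78, -2.20 and -1.45 (limma adjusted p = 0.0116, 0.00458 and 0.0296), and those from the untransfected line -2.62, -3.05 and -2.29 (0.00237, 0.00121 and 0.00464). In the comparison of line means 1 gene of the first list (Itgbl1, integrin beta-like 1, higher), 1 adaptor (Tln2, lower) and 0 ligands were called. Over all tested probe sets, 0.898% were called there.

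For 6 subunits the line means of the leading probe set ranged over at least 1 on the log2 scale. The genes most similar to these over the 10 arrays were sought among 1107 candidates. Itgb3 was most like Plin2 (r = 0.99) and Serinc2 (0.97), and Itga1 most like Klf9 (0.98) and Adgre5 (0.98). Itga8 was most like Adamts12 (0.98) and Cd81 (0.97), and Itga6 most like Sulf1 (0.96) and Dach1 (0.96). Itga5 was most like LOC102547700 (0.97) and Pfkfb3 (0.96), and Itga7 most like Rab38 (0.90) and Ltbp4 (0.88). The 10 arrays are 5 lines at 2 passages, so these correlations describe the line pattern and carry no test.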

How the data were processed

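The deposited table held intensities on a linear scale, 1 column for each of 10 Affymetrix arrays, which the authors produced by RMA, per the submitters' processing notes; its version is not given in the sources used here. No deposited intensity was under 20, and 14.6% were exactly 20. Array medians lay between 97.74 and 103.74, and with 2 arrays a line their number limits the precision. Gene symbols came from the platform annotation. The tests covered 27520 of 31099 probe sets, after removal of 57 array controls and of 3522 never above the floor; of the 27520, 19202 had 1 symbol, 399 several and 7919 none.

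Log2 of the intensities (the planned tests took log2 values as given) was fitted with limma 3.58.1 in R 4.3.3, with a coefficient for each line (5 residual degrees of freedom) and Benjamini-Hochberg adjustment over 27520 probe sets; calls have an adjusted p under 0.05. Tests were two-sided. Clones were also compared by an F test, and 3 clone means were set against 2 control line means (3 residual degrees of freedom). The comparison of passages, from the fit with line and passage, was chosen after the data were seen. The code was tested on simulated data.

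Passage differences of the 10 pairs of lines correlated by 0.136 to 0.648 over probe sets, all above 0.1, so the passage number, which the labels give, was judged to pair the samples. The fit behind the reported values and percentages was planned with no passage term and so leaves this pairing out. The passage entered as a block only as an alternative, which called more probe sets in each of the 7 single-line comparisons. Alternatives were the passage as a block, quantile normalisation, a stricter filter, no filter, and leaving out each array or line. For the lists, another probe set per gene was also used. The stricter filter kept probe sets whose mean log2 intensity over all arrays was at least the log2 of 50.

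Every probe set with 1 symbol among the 9 members is described, led by the one with the highest mean. From each of 3 lists (1 probe set per gene, the highest mean), up to 4 genes with the largest difference among those called are named. For members whose line means range over at least 1 on the log2 scale at the leading probe set, the 2 most correlated genes are given. Members and lists were chosen with earlier results of these data known. All 9 members matched by gene identifier to the RefSeq gene table of GRCr8. Mature miR-146a was not analysed here.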

Additional observations from a re-analysis of the deposited data

Results flagged for a closer look

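At Itga7 (1388240_a_at), both S1 arrays lay above both untransfected arrays and both S4 arrays below them, so that the 2 clones lay on opposite sides of the same control. Only the S4 difference was called (-1.13, limma adjusted p = 0.0253); that of S1 was 0.42 (limma adjusted p = 0.317). At the leading Itga7 probe set S1 overlapped the untransfected line. The test of the difference between clones gave a limma adjusted p of 0.217, past no threshold, with an unadjusted p of 0.000213. Lines of 2 arrays were too small for a check of single arrays against their own group.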

How the results depend on the processing

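With the passage as a block, all-array counts of called probe sets were 2129, 1906 and 1845 for S1, S4 and S5 against scrambled. They were 2439, 1904 and 2103 against untransfected, 3602 for scrambled against untransfected and 25 between clones. Integrin counts with the block were 7, 5 and 5 for S1, S4 and S5 against scrambled. They were 5, 5 and 4 against untransfected, 12 for scrambled against untransfected and 0 between clones. Beside the calls the text gives with the block, it changed no other call of an integrin probe set. Leaving out the filter adds 3522 probe sets of no variance to the fit. Without it the same 8 all-array counts were 616, 574, 467, 602, 503, 526, 1014 and 4. There were 14 for the clones against the control lines and 625 for the passages. Integrin counts without a filter were 3 for S1 and 3 for S4 against scrambled, 1 for each clone against untransfected, 4 for scrambled against untransfected and 0 for the passages, and 17 of the 33 integrin calls were lost. The stricter filter gave 1 integrin call, Itgb3, for the clones against the control lines. Quantile normalisation lost 1 integrin call, Itgb3 in scrambled against untransfected.

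Leaving out 1 array or line moved all-array counts between 243 and 1206, 309 and 1095, and 228 and 958 (S1, S4, S5 against scrambled), 216 and 2357, 257 and 1918, and 180 and 2136 (against untransfected), 608 and 3224 (scrambled against untransfected), 4 and 8 (between clones), 0 and 2968 (clones against control lines) and 0 and 1698 (passages). Integrin counts moved between 2 and 7, 2 and 5, 2 and 4, 1 and 3, 1 and 4, 1 and 3, 3 and 7, 0 and 7 (clones against control lines) and 0 and 4 (passages). A line left with 1 array is assumed to vary like the others. Where 1 control line was left out of the comparison of line means, the spread came from the clones alone. Of 33 integrin calls, 12 held in every fit that left out 1 array. Without the scrambled line, Itga11 and Csrp1 turned lower in the clones than in the control line, at -0.74 (limma adjusted p = 0.0341) and -0.73 (0.0424); over the fits that left out 1 array or line they reached 1.89 and 1.03, without the untransfected line. No called integrin value changed sign; among 2006 recomputed integrin values, 60 uncalled ones did. Low signal limits Itga6 (1371185_at), Itga7 (1371214_at) and Itgb6.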
